A study of Mus musculus with 12 samples.

Results

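Of the 10 enzymes described here, Phgdh, Psat1 and Psph make serine, and Shmt1 and Shmt2 pass its one-carbon unit to folate. Mthfd1 and Mthfd2 convert the units carried by folate, Aldh1l1 removes them, and Aldh18a1 and Pycr1 make proline. The members were taken by gene name, as all probe sets that the platform annotation assigns to these genes. Pycr1 was taken from a single probe set, which the annotation used here leaves unnamed. The members are 10 of the 18195 genes that a probe set names alone, and they have 28 such probe sets of the 45101 on the array, while a further 2 probe sets name Phgdh together with another gene and were given no gene value. Where a gene had several probe sets, the one with the highest mean log2 signal stands for the gene, and the others are given beside it. Of the 28, 12 have the suffix x_at and 2 the suffix s_at, which mark probe sets that may also match other transcripts. Those used for Phgdh, Psat1, Shmt2 and Aldh18a1 are among them. Whole blood RNA was measured in C57Bl/10 mice, obtained at 3 months of age, with 1 mouse per array and 4 mice per group. CH mice spent 2 weeks in normobaric chronic hypoxia, with oxygen lowered from 21% to 8%. REC mice went through the same 2 weeks of CH and then 2 weeks of normoxia. NX mice stayed at 21% oxygen for 2 weeks, so the REC protocol lasted longer than the NX one. Its length, with the age it adds by harvest, and its content cannot be told apart in REC against NX. The legend of the paper's protocol figure, unlike its methods, puts 2 weeks of normoxia before CH in the CH and REC groups. By that account length and age cannot be told apart from hypoxia in CH against NX either.

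Serine is made from a glycolytic intermediate in 3 steps, and serine hydroxymethyltransferase then splits it into glycine and a one-carbon unit carried by folate. The folate enzymes exist as parallel sets in mitochondria (Shmt2, Mthfd2) and in the cytosol (Shmt1, Mthfd1, Aldh1l1), and their product feeds purine and thymidylate synthesis and the methionine cycle. Glycine is also the substrate of Alas2, which starts heme synthesis in red cell precursors, and several genes of serine, proline and mitochondrial folate metabolism are known targets of the transcription factor ATF4 in other mouse and human cells.

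The promoters of 4 members are shown because they stand for the different responses described next: Pycr1 and Shmt2 were higher in CH than in NX, Phgdh was lower in CH than in REC, and Aldh18a1 makes the substrate that Pycr1 reduces. Each line is the stretch of 250 bases before the gene's start, 5′ to 3′ on the gene's strand, from RefSeq on build GRCm38.p6, with motif matches in capitals. They lie on the minus strand at chr11:120643749-120643998 (Pycr1), chr10:127522445-127522694 (Shmt2), chr3:98339970-98340219 (Phgdh) and chr19:40588464-40588713 (Aldh18a1).
Pycr1: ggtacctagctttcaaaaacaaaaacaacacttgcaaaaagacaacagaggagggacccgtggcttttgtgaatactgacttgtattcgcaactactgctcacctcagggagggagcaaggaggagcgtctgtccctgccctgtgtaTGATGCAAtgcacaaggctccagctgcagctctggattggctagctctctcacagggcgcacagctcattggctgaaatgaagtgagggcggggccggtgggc
Shmt2: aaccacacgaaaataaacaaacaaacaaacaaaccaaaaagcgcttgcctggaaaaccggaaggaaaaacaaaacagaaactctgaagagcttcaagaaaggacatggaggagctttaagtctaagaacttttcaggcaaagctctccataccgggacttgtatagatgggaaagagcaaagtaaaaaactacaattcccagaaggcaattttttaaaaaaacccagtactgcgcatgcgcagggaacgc
Phgdh: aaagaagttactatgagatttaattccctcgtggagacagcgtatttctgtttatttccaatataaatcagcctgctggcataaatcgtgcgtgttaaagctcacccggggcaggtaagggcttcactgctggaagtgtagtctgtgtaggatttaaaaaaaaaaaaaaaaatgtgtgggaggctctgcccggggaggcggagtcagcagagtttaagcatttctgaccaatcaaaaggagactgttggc
Aldh18a1: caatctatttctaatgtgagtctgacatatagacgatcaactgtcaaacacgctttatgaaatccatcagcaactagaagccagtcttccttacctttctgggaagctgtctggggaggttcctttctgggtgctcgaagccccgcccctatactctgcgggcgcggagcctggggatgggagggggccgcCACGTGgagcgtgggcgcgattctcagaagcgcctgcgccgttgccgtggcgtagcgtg

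All 10 members had a promoter window in the RefSeq table, 11 windows in all because Psat1 has 2, and each window was searched on both strands from 250 bases before to 50 bases after the start. The C/EBP-ATF response element, searched as TGATGNAA, was found in 1 of the 11 windows, that of Pycr1, as TGATGCAA from 103 to 96 bases before the start, and in 3.97% of all 32851 windows. The E-box CACGTG was found in 1 member window, that of Aldh18a1, 59 to 54 bases before the start, and in 7.15% of all windows. The core of the hypoxia response element, ACGTG, which also lies inside that E-box, was found in 3 member windows (Psat1, Psph and Aldh18a1) and in 19.6% of all windows, and the GATA motif AGATAA was found in none of the member windows and in 11.2% of all. These are matches of letters in one window per start and say nothing of binding. The windows of Mthfd2 and Mthfd1 and the second window of Psat1 lie inside the annotated gene, downstream of its outermost start, and are not shown. That of Psph lies inside its gene for the most part and that of Aldh1l1 at its end, and neither is shown. The ACGTG matches of Psat1 and Psph lie inside the annotated gene.

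The deposited signals are intensities on a linear scale with the same trimmed mean of 150.0 on every array, and the array medians lay between 32.9 and 59.9. Changes are given as differences of log2(signal + 16), which understates the change of dim probe sets, with the standard error (SE) of the limma fit over the 12 arrays and the Benjamini-Hochberg adjusted p over all 45101 probe sets. To be called higher or lower, a gene had to differ by 2-fold or more with an adjusted p under 0.05. The hybridization controls are transcripts of known amount added at hybridization, so they do not measure the RNA content of a blood sample. They were higher by a log2 signal of 1.63 in CH than in NX and lower in REC than in NX, with a difference of -0.79. Both differences gave p = 0.0286 by an exact two-sided permutation test, which cannot go lower with 4 arrays a side. In the brightest 100 probe sets lay 21.0% ± 1.01 of all signal in CH, 9.13% ± 0.797 in REC and 12.2% ± 1.69 in NX, and actin, read at its 3′ end over its 5′ end, had a ratio of 2.00 ± 0.0941 in CH, 1.61 ± 0.0923 in REC and 1.71 ± 0.104 in NX (SD, n = 4 arrays each). The same ratio for Gapdh was 2.29 ± 0.368 in CH, 1.77 ± 0.0783 in REC and 2.07 ± 0.201 in NX. The actin ratio gave p = 0.0286 by the exact permutation test for CH against NX and for CH against REC. For REC against NX the actin ratio gave p = 0.2 by the exact permutation test. The Gapdh ratio gave p = 0.371 by the exact permutation test for CH against NX. It gave p = 0.0286 by the exact permutation test for REC against NX and for CH against REC. Within CH the Gapdh ratio ran from 1.87 on replicate 1 to 2.73 on replicate 4.

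In CH blood, Shmt2 and Mthfd2, which act in mitochondrial folate metabolism, and Pycr1, the last enzyme of proline synthesis, were higher than in NX blood, while the cytosolic Mthfd1 was lower. The 3 genes called higher of 10 were Mthfd2 (log2 change 5.46), Pycr1 (4.61) and Shmt2 (2.81), where 8.04% of all probe sets were called higher. The 1 gene called lower was Mthfd1 (-1.45), where 13.9% of all probe sets were called lower. With the arrays scaled to the hybridization controls instead, the same 3 genes were called higher and 6 were called lower (Phgdh, Psat1, Psph, Shmt1, Mthfd1 and Aldh18a1), and over all probe sets the split was 532 higher and 17702 lower, against 3628 higher and 6282 lower as deposited. Counted by probe set, 7 of 28 were higher and 4 were lower. All 4 CH arrays lay above all 4 NX arrays for Shmt2, Mthfd2, Aldh1l1 and Pycr1, as for 10.2% of all probe sets, and below them for Psph and Mthfd1, as for 15.8% of all. The median change of the 10 genes was -0.12, and that of all probe sets was 0.11. Blood is a mixture of cells, so fewer cells of a type and less RNA per cell cannot be told apart in any of these values.

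**Figure D1:**
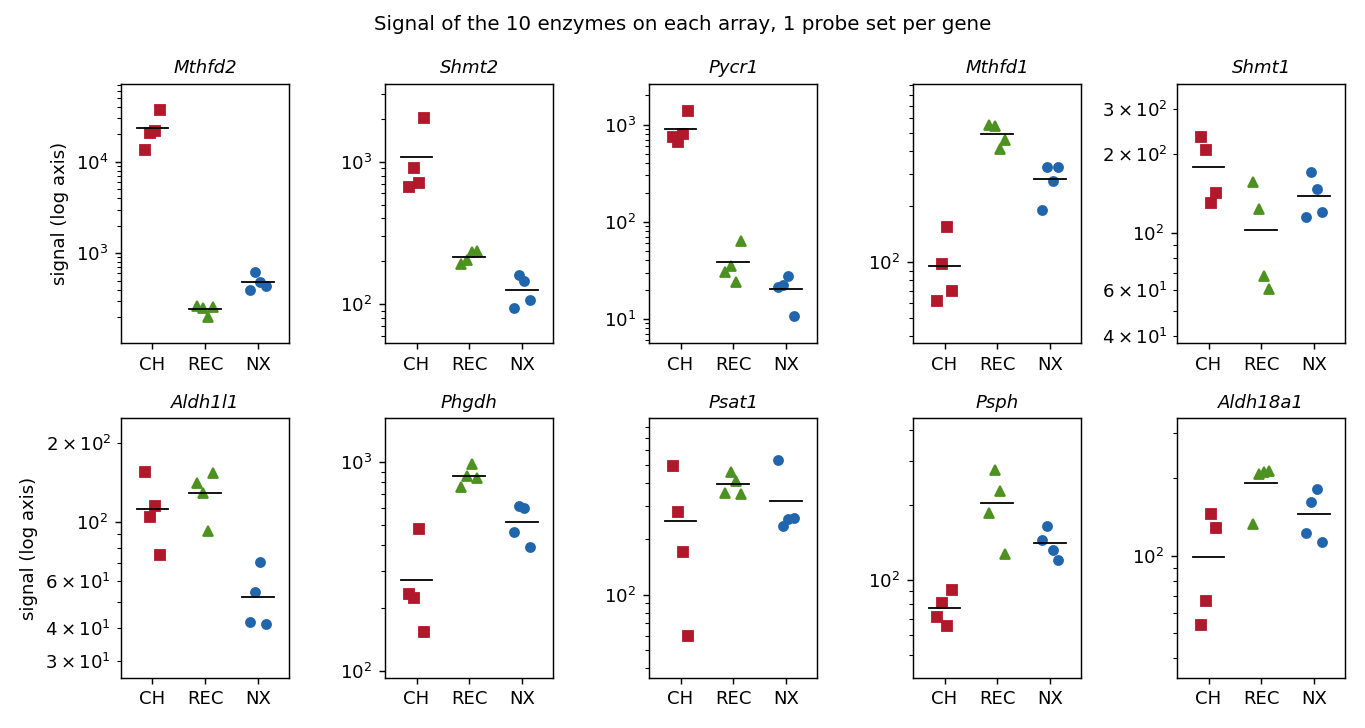
Signal (log axis, a linear intensity with no unit) of each of the 10 enzymes on the 4 CH (squares), 4 REC (triangles) and 4 NX (circles) arrays, 1 probe set per gene, with the mean of each group as a line. The CH arrays of Mthfd2, Shmt2 and Pycr1 lie above all REC and NX arrays, and those of Mthfd1 and Psph lie below all of them.

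Mthfd2, the mitochondrial methylenetetrahydrofolate dehydrogenase and cyclohydrolase, had the largest change of the 10 genes in CH against NX as deposited, while after quantile normalization Pycr1 (4.70) was ahead of it (4.34). Its signal was 13419, 20924, 21740 and 36917 on the CH arrays, 266, 253, 203 and 258 on the REC arrays and 393, 629, 485 and 437 on the NX arrays. Every CH array lay far above every other array, and every REC array lay below every NX array. Mthfd2 was higher in CH than in NX by 5.46 on the log2 scale (SE 0.29, limma adjusted p = 3.08e-07), a 44.1-fold change. CH was above REC by 6.39 (SE 0.29, adjusted p = 9.38e-09). The lower signal in REC than in NX, a log2 difference of -0.93 (SE 0.29), missed the threshold (limma adjusted p = 0.0855), so the order of the groups was CH above NX and REC, with NX and REC not separated by the test. Its second probe set gave log2 changes of 5.73, -0.91 and 6.64 for CH against NX, REC against NX and CH against REC.

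Shmt2, the mitochondrial serine hydroxymethyltransferase, is the step before Mthfd2 in mitochondria. Its signal was 666, 897, 715 and 2022 on the CH arrays, 192, 203, 231 and 237 on the REC arrays and 93.3, 161, 145 and 107 on the NX arrays. The 3 groups did not overlap, with CH highest and NX lowest. Shmt2 was higher in CH than in NX by 2.81 (SE 0.32, limma adjusted p = 2.77e-05), a 7.01-fold change. It was above REC by 2.09 (SE 0.32, adjusted p = 0.00017) as deposited, while scaling to the hybridization controls gave -0.25. The difference of REC from NX, 0.72 (SE 0.32), missed the threshold (limma adjusted p = 0.253). The other 3 probe sets of Shmt2 were also called higher in CH than in NX, by 2.36, 2.14 and 1.58, so all 4 of its probe sets were called in that comparison, and all 4 were called in CH against REC. Only the probe set with the change of 2.36 lacks the x_at suffix.

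Mthfd1, the cytosolic trifunctional enzyme that combines dehydrogenase, cyclohydrolase and synthetase activities, moved the other way. Its signal was 61.4, 97.5, 155 and 69.6 on the CH arrays, 550, 546, 410 and 459 on the REC arrays and 191, 328, 275 and 328 on the NX arrays. The groups did not overlap, and the order was REC, NX and CH from high to low. Mthfd1 fell by 1.45 in CH against NX (SE 0.28, limma adjusted p = 0.0015) and by 2.24 in CH against REC (SE 0.28, adjusted p = 3.05e-05). Its difference in REC against NX, 0.79 (SE 0.28), missed the threshold (limma adjusted p = 0.134). Of its other probe sets, 1 was also called lower in CH than in NX (-1.05, adjusted p = 0.0199) and was called higher in REC than in NX (1.40, adjusted p = 0.0186), while the other was not called in any comparison (-0.59 in CH against NX). The probe sets of Mthfd1 therefore differed in whether REC passed the test against NX, and the one that did has the x_at suffix.

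Shmt1, the cytosolic serine hydroxymethyltransferase, was not called in any comparison by any of its 4 probe sets. Its signal was 233, 208, 130 and 142 on the CH arrays, 157, 123, 68.2 and 60.5 on the REC arrays and 115, 172, 147 and 120 on the NX arrays. The 3 groups overlapped. Its changes were 0.31 in CH against NX (SE 0.30, limma adjusted p = 0.483), -0.46 in REC against NX (adjusted p = 0.485) and 0.77 in CH against REC (adjusted p = 0.0594). Scaled to the hybridization controls, all 3 changes took the opposite sign, and CH was called lower than NX by a log2 change of -1.12.

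Aldh1l1, the cytosolic enzyme that oxidizes 10-formyltetrahydrofolate and so removes one-carbon units from the folate pool, was the only one of the 10 genes called in REC against NX, counted with 1 probe set per gene. Its signal was 154, 105, 115 and 75.5 on the CH arrays, 141, 129, 92.7 and 154 on the REC arrays and 42.2, 54.8, 71.0 and 41.4 on the NX arrays. All CH and all REC arrays lay above all NX arrays, and CH and REC overlapped. Aldh1l1 was higher in REC than in NX by 1.09 (SE 0.26, limma adjusted p = 0.026). In CH against NX its change of 0.90 (SE 0.26, adjusted p = 0.0174) was under 2-fold and so was not called. It was called higher in CH after quantile normalization (1.06) and with a pseudocount of 1 (1.08), and scaled to the hybridization controls the change was -0.42. Its second probe set was dim, with signals between 0.321 and 9.45, and was not called. The call in REC against NX was lost without any 1 of REC replicates 1, 2 and 4 and NX replicates 1, 2 and 4, which left 0 genes called higher.

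The 3 enzymes that make serine were not called in CH against NX, and the mean signal of each was lowest in CH. Phgdh, which starts the pathway, had signals of 234, 222, 480 and 153 on the CH arrays, 756, 862, 983 and 836 on the REC arrays and 461, 614, 604 and 391 on the NX arrays. All REC arrays lay above all others, and 1 CH array, replicate 3, lay within the NX range. Phgdh differed between CH and NX by -0.98 (SE 0.30, limma adjusted p = 0.025), just under 2-fold. It fell by 1.71 in CH against REC (SE 0.30, adjusted p = 0.000517), and 3 of its 4 probe sets were called there. Without CH replicate 3, NX replicate 1 or NX replicate 4 Phgdh was called lower in CH than in NX as well, which made 2 member genes lower.

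Psph, the phosphatase of the last step of serine synthesis, had signals of 71.1, 81.1, 65.4 and 91.3 on the CH arrays, 185, 275, 226 and 127 on the REC arrays and 145, 165, 132 and 120 on the NX arrays. All CH arrays were below all others, and REC and NX overlapped. Its change was -0.75 in CH against NX (SE 0.25, limma adjusted p = 0.0363), under 2-fold and not called, and Psph fell by 1.19 in CH against REC (SE 0.25, adjusted p = 0.00182).

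Psat1, the aminotransferase between Phgdh and Psph, had the largest SE of the 10 genes, 0.46. The probe set used had signals of 491, 278, 170 and 59.7 on the CH arrays, 351, 457, 410 and 349 on the REC arrays and 531, 235, 254 and 258 on the NX arrays, so CH overlapped both other groups. Its changes were -0.57, 0.35 and -0.92 in CH against NX, REC against NX and CH against REC (limma adjusted p = 0.388, 0.77 and 0.128). The other probe set of Psat1 had 10.9, 99.6, 159 and 187 in CH, 293, 333, 347 and 431 in REC and 158, 234, 241 and 176 in NX. It was called lower in CH than in REC (-1.82, adjusted p = 0.00886) and not in CH against NX (-1.07, adjusted p = 0.116), and its CH arrays ran in the opposite order to those of the first probe set.

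Pycr1, the mitochondrial reductase that completes proline synthesis, had signals of 750, 655, 807 and 1382 on the CH arrays, 30.6, 35.2, 24.0 and 63.2 on the REC arrays and 21.1, 22.3, 27.6 and 10.8 on the NX arrays. The CH arrays lay above all others, and REC and NX overlapped. Outside CH, Pycr1 was above the median signal of its array on 1 REC array and on no NX array, so its lower values are near the dim end of the scale. Pycr1 was higher in CH than in NX by 4.61 (SE 0.29, limma adjusted p = 5.86e-07) and than in REC by 4.06 (SE 0.29, adjusted p = 1.59e-07). REC differed from NX by 0.55 (limma adjusted p = 0.367).

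Aldh18a1, the synthase that makes the substrate of Pycr1 from glutamate, did not move with it. Its probe set used had signals of 54.1, 66.9, 146 and 128 on the CH arrays, 133, 207, 212 and 213 on the REC arrays and 123, 162, 182 and 113 on the NX arrays. CH overlapped both other groups. The changes were -0.56 in CH against NX (SE 0.30, limma adjusted p = 0.192), 0.36 in REC against NX (adjusted p = 0.603) and -0.92 in CH against REC (adjusted p = 0.0278, under 2-fold). Of the 5 probe sets of Aldh18a1, 2 were called lower in CH than in NX, by -1.80 (adjusted p = 0.00711) and -1.23 (adjusted p = 0.0122), and the same 2 in CH against REC, by -2.33 and -1.53, while none was called higher.

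**Figure D2:**
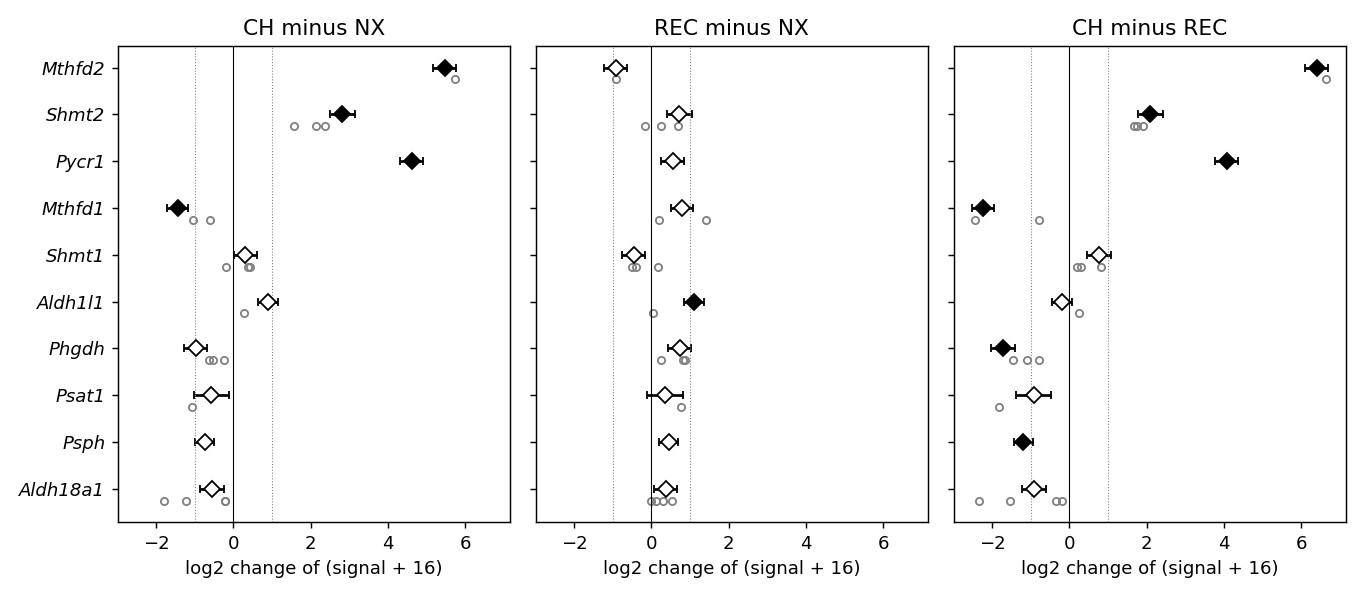
Log2 change of (signal + 16) for each gene in CH minus NX, REC minus NX and CH minus REC, with the SE of the limma fit as error bar (n = 4 arrays per group), filled where called. Small grey circles are the gene's other probe sets and dotted lines mark a 2-fold change. Mthfd2, Shmt2 and Pycr1 are called higher in both CH comparisons (Shmt2 in CH minus REC turns to -0.25 when scaled to the hybridization controls), and Mthfd1 is called lower in both.

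Ratios within an array do not depend on a single scaling factor for that array, except through the added 16. The change of 1 enzyme relative to its partner was therefore also taken array by array, on the signals as deposited. Quantile normalization is not a single factor and does change such ratios. With it, the change in CH against NX went from 5.46 to 4.34 for Mthfd2 and from -1.45 to -1.23 for Mthfd1. The log2 difference of Mthfd2 and Mthfd1 was 7.68 ± 0.75 in CH, -0.96 ± 0.12 in REC and 0.77 ± 0.26 in NX (SD, n = 4 arrays each). The mitochondrial enzyme had thus gained 6.91 on the cytosolic one in CH against NX and differed by -1.72 in REC against NX, and no 2 groups overlapped. For Shmt2 and Shmt1 the difference was 2.37 ± 0.95 in CH, 1.05 ± 0.70 in REC and -0.13 ± 0.10 in NX, a shift of 2.50 in CH and of 1.18 in REC against NX. CH and REC overlapped in that ratio, and both lay above NX on every array. For Pycr1 and Aldh18a1 the difference was 3.02 ± 0.48 in CH, -1.96 ± 0.45 in REC and -2.14 ± 0.16 in NX, and CH alone stood apart, while REC and NX overlapped. These values rest on 2 probe sets each, so only their shifts between groups can be read, and no test was made of them.

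**Figure D3:**
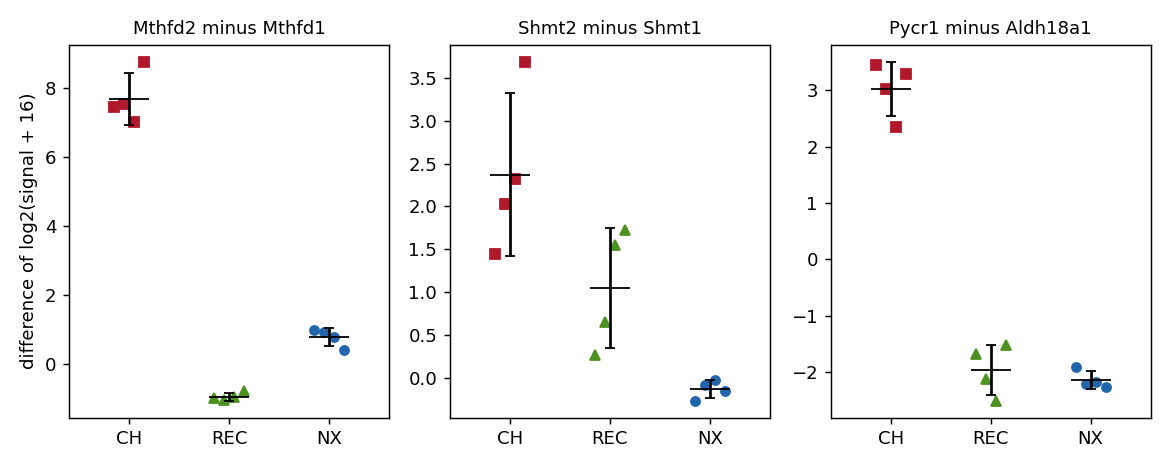
Difference of log2(signal + 16) between the enzymes of 3 pairs on each array, for CH (squares), REC (triangles) and NX (circles), with the mean and SD of 4 arrays. The difference of Mthfd2 and Mthfd1 averages 7.68 in CH, -0.96 in REC and 0.77 in NX.

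After 2 weeks of recovery, 1 of the 10 genes, Aldh1l1, was called higher in REC than in NX (1.62% of all probe sets were called higher), and 0 were called lower (2.74% of all). The genes whose 4 REC arrays all lay above the 4 NX arrays were Phgdh, Shmt2, Mthfd1 and Aldh1l1, where 8.58% of all probe sets did so, and Mthfd2 alone lay below on all arrays, where 11.8% of all probe sets did so. The median change of the 10 genes was 0.50, and that of all probe sets was -0.10. Scaled to the hybridization controls, 7 genes were called higher in REC than in NX (Phgdh, Psph, Shmt2, Mthfd1, Aldh1l1, Aldh18a1 and Pycr1), and over all probe sets 7320 were higher and 419 lower, against 730 and 1236 as deposited.

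Set directly against REC, CH had 3 genes called higher (Mthfd2, Pycr1 and Shmt2; 12.6% of all probe sets) and 3 called lower (Mthfd1, Phgdh and Psph; 15.2% of all). Scaled to the hybridization controls these counts were 2 higher, without Shmt2, and 7 lower, and over all probe sets 621 were higher and 23969 lower, against 5688 and 6866 as deposited. Counted by probe set, 7 of 28 were higher and 9 lower, among them 1 probe set of Psat1 and 2 of Aldh18a1. The median change of the 10 genes was -0.56, and that of all probe sets was 0.25. The 3 comparisons share arrays, since each group enters 2 of them, so their values for a gene are not independent of one another.

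**Figure D4:**
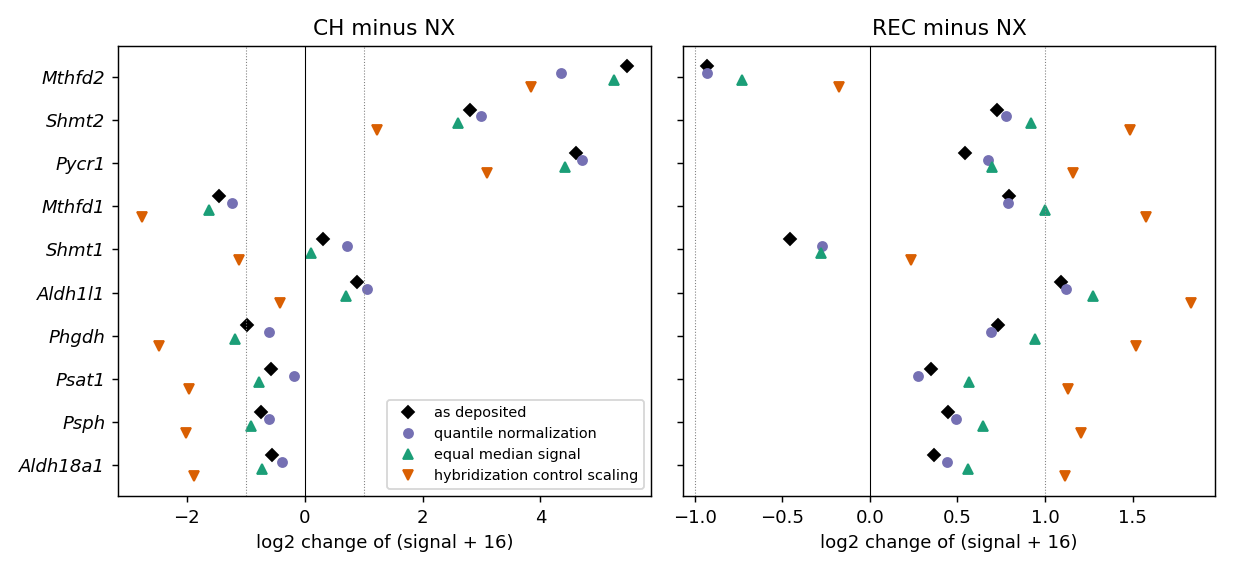
Log2 change of (signal + 16) of each gene in CH minus NX and REC minus NX under 4 scalings of the arrays, as deposited, after quantile normalization, at equal median signal and scaled to the hybridization controls. Mthfd2, Shmt2 and Pycr1 stay above a 2-fold change in CH under all 4, and the sign of Aldh1l1 and Shmt1 in CH turns when the arrays are scaled to the hybridization controls.

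The other enzymes of the pathway were taken from lists of names. Of 12 measured other folate enzymes and carriers, none was called higher in CH than in NX and 2 were lower, Sfxn1 (-1.44), the mitochondrial serine carrier, and Mthfd2l (-1.08), the paralog of Mthfd2. Both probe sets of Sfxn1 were called, and 1 of 4 of Mthfd2l. The share called lower over all probe sets was 13.9%, and the count in this list was 4 at equal median signal and 7 when scaled to the hybridization controls. Mthfd1l (0.26) and Aldh1l2 (0.72), which also act in mitochondria, were not called. In CH against REC, Ggh, which trims folate polyglutamates, was lower too (-1.78). The change of Mthfd2 was therefore not shared by Mthfd2l, which differed from NX in the other direction. Of 3 measured members of the glycine cleavage system, 0 were higher and 1, Dld, was lower (-1.15), or 2 when scaled to the hybridization controls. Of the 2 probe sets of Dld, 1 was called lower, and the other changed by 0.38.

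Of 9 measured genes of the methionine cycle and transsulfuration, 2 were higher in CH than in NX and 0 lower. Over all probe sets, 8.04% were called higher and 13.9% lower. The split of the list was 2 and 1 at equal median signal and 1 and 4 when scaled to the hybridization controls. Mtr, methionine synthase, which takes the methyl group from folate, had signals of 565, 916, 483 and 1685 in CH, 73.8, 66.0, 70.0 and 32.7 in REC and 74.2, 80.6, 104 and 98.5 in NX. It was higher in CH by 2.98 (SE 0.35, limma adjusted p = 3.52e-05), with both of its probe sets called. Mat2b, the regulatory subunit of S-adenosylmethionine synthesis, was higher by 2.15 (SE 0.23, adjusted p = 1.59e-05), and by 0.54, not called, when scaled to the hybridization controls. Ahcy, which splits S-adenosylhomocysteine, was called lower in CH than in REC (-1.40) and not in CH against NX. Of 6 other proline and ornithine enzymes measured, 1 was called in CH against NX, Oat (-1.61), which links ornithine to proline synthesis and was lower, and scaled to the hybridization controls 4 were lower.

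Among 8 measured genes that use serine or glycine, 2 were higher in CH than in NX and 2 were lower. Over all probe sets, 8.04% were called higher and 13.9% lower. The split of the list was 1 and 5 when scaled to the hybridization controls. Ptdss2, which exchanges serine into phosphatidylserine, was higher by 2.96 (SE 0.37, limma adjusted p = 5.43e-05), with 9 of 9 probe sets called. Alas2, the first enzyme of heme synthesis in erythroid cells, was higher by 1.75 in CH and fell by 1.49 in REC against NX, and neither call held when the arrays were scaled to the hybridization controls (0.11 and -0.70) or quantile normalized (0.034 and -1.07). Sptlc1 (-1.78) and Sptlc2 (-1.76), the subunits of serine palmitoyltransferase, were lower in CH, with 2 of 4 and 1 of 3 of their probe sets called. Ptdss2 and serine palmitoyltransferase draw on the same substrate and moved in opposite directions.

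All 6 purine synthesis genes that consume the products of folate and glycine metabolism or act beside them were measured, and 4 were lower in CH than in NX. They were Paics (-1.83), Adsl (-1.60), Atic (-1.54) and Gart (-1.20), and none was higher. Their probe sets called lower were 2 of 3 for Paics, 1 of 1 for Adsl, 2 of 2 for Atic and 1 of 4 for Gart. After quantile normalization 2 were called lower, without Gart (-1.06) and Adsl (-1.37), and scaled to the hybridization controls 5 were. Over all probe sets as deposited, 13.9% were called lower. The median change of the list was -1.37, where that of all probe sets was 0.11. Paics had signals of 127, 115, 198 and 131 in CH, 751, 989, 1072 and 713 in REC and 534, 464, 713 and 478 in NX, with CH below both other groups on every array. Atic, which uses 10-formyltetrahydrofolate for the last one-carbon step of the ring, had 52.8, 88.3, 139 and 49.4 in CH, 404, 465, 565 and 364 in REC and 235, 289, 255 and 236 in NX, again with no overlap. In CH against REC the same 4 genes were lower, where 15.2% of all probe sets were called lower. Pfas was higher there (1.14) as deposited, where 12.6% of all were, and at -0.97 when scaled to the hybridization controls.

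Of 10 genes of the amino acid stress response, 4 were higher in CH than in NX and 2 were lower. Over all probe sets, 8.04% were called higher and 13.9% lower. Atf5, a transcription factor, had signals of 10382, 8153, 7762 and 20234 in CH, 107, 75.7, 98.8 and 121 in REC and 44.6, 73.6, 65.2 and 69.2 in NX, a change of 7.10 (SE 0.30, limma adjusted p = 2.61e-08). Asns, asparagine synthetase, was higher by 5.69, Trib3, a pseudokinase, by 2.02 and Atf4 itself by 1.83, the last with 2 of 3 probe sets called. Scaled to the hybridization controls, Trib3 (0.76) and Atf4 (0.21) were not called, and the split was 2 higher and 5 lower. Atf4 was not called after quantile normalization either (0.88). Ddit4, an inhibitor of mTORC1 signalling, was lower (-2.67), as was Cebpg (-1.56), a partner of ATF4. In REC against NX 0 of the 10 were called in either direction.

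Markers of the cells that blood RNA can hold were compared in the same way, and the lists differed in how many were called. Over all probe sets, 8.04% were called higher and 13.9% lower in CH against NX. In REC against NX these shares were 1.62% and 2.74%. Of 8 reticulocyte and erythroid markers, 7 were higher in CH than in NX, or 5 after quantile normalization (without Slc4a1 and Alas2) and 5 when scaled to the hybridization controls (without Alas2 and Gata1). Their summed signal was 107580 to 170520 in CH, 5395 to 15961 in REC and 21768 to 33190 in NX. In REC against NX 4 of the 8 were lower, Slc4a1, Alas2, Epb42 and Ank1. That count was 3, without Alas2, under each of the other scalings, and scaled to the hybridization controls 1 marker was higher. Of 5 B cell markers 4 were lower in CH, and their summed signal was 1838 to 10842 in CH, 18775 to 21508 in REC and 15075 to 18813 in NX. All 6 T cell markers measured were lower in CH, with sums of 976 to 3994 in CH, 8342 to 8858 in REC and 4437 to 6221 in NX. Within each of these 3 lists the ranges of CH and NX did not overlap. Of 4 NK cell markers, 2 were lower in CH than in NX, Nkg7 (-1.36) and Gzma (-2.08), and Prf1 was higher (1.21) as deposited and at -0.33 when scaled to the hybridization controls. The 2 probe sets of Prf1 disagreed, and the other changed by -0.88 in CH against NX, without a call. In CH against REC 1 of them was called higher (1.84) and 1 lower (-1.31). Nkg7 (1.81) and Gzma (1.43) were higher in REC than in NX, Gzma without a call at equal median signal, and the summed NK signal was 1037 to 1885 in CH, 6514 to 10432 in REC and 2121 to 4017 in NX. Of 5 monocyte markers, 1 was lower in CH, Csf1r (-1.59), and 0 were called in REC against NX. Of 9 dividing cell markers 3 were higher in CH and 1 was lower, and of 6 neutrophil, 6 platelet and 5 hepatocyte markers 0 were called in CH against NX, while scaled to the hybridization controls all 6 neutrophil and 5 of the platelet markers were called lower. No listed marker had a signal of 0 on any array, and Hba-a1, Pax5 and Fgb were below the median signal of every array. Listed genes were read only from probe sets that name 1 gene. For Hba-a1 this left 1 probe set, with signals between 1.16 and 25.4, so its value cannot be taken as the level of alpha globin in blood. The part of these cells in the changes of the 10 enzymes was not tested.

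CH replicate 4 had the highest signal of the 4 CH arrays in all 7 member probe sets that were higher in CH, and in 6 of the 8 erythroid markers. Without CH replicate 4, Mthfd2, Pycr1 and Shmt2 were still called higher in CH than in NX, together with Aldh1l1, which made 4. Of the 4 member probe sets lower in CH, 3 were highest on CH replicate 3, the CH array nearest to NX for Mthfd1 and Phgdh.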

How the data were processed

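Whole blood RNA of 12 mice was hybridized to Affymetrix Mouse 430 2.0 arrays, 4 per group. The deposited values are signal intensities on a linear scale, 1 per probe set and array, which the authors scanned with an Agilent instrument, and every array has the same trimmed mean. The methods name the GeneChip Operating System as the software in which probe set intensities were kept and mention scaling factors, without saying which algorithm summarised them, and the GC-RMA named in the methods is not their scale. The labels name isothermal amplification of the RNA and the methods a one-cycle T7 labelling, so which was used is unsettled. Where a sample identifier and the title disagree on CH, the title and protocol, which give hypoxia, were followed. No batch or scan date was used, and the number of arrays limits the precision.

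Names of probe sets came from the platform annotation and were brought up to date by gene number. Of 45101, 34958 name 1 gene. In R 4.3.3, limma 3.58.1 fitted a mean per group to log2(signal + 16) of the 12 arrays (lmFit, contrasts.fit, eBayes), which left 9 residual degrees of freedom, and the fit was tested on simulated data. Array measures were compared with exact permutation tests (scipy 1.17.1), and figures were drawn with matplotlib 3.10.9. All 10 members were named, with every probe set that names 1 of them. Of each other list, the count called and up to 4 called genes with the largest change were named. The members, the lists and the tests were chosen with earlier results of these data known. Motifs were searched in 300-base RefSeq promoter windows of GRCm38.p6. The 26 alternatives were other scalings, pseudocounts, priors and thresholds, a filter on dim probe sets, array weights, averaging the probe sets of a gene, fits of only the 8 arrays compared, the replicate number as a block and leaving out each of 12 arrays.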

Additional observations from a re-analysis of the deposited data

Results flagged for a closer look

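Of 30 sets of 4 arrays, 1 for each gene and group, 2 held an array far from the other 3. Chance flags about 1 in 20 such sets. NX replicate 1 had the highest Psat1 signal of its group, 531, against 235 to 258 on the other 3 NX arrays, a gap of 0.887 of the group's range. REC replicate 1 had the lowest Aldh18a1 signal of its group, 133, against 207 to 213 on the other 3 REC arrays, a gap of 0.945 of the range.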

How the results depend on the processing

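Over the 26 alternatives, Mthfd2 (3.84 to 5.70), Pycr1 (3.10 to 5.40) and Shmt2 (1.23 to 2.99) were called higher in CH than in NX under every one, and Mthfd1 (-2.75 to -1.03) was called lower under 25, the exception being the limit of 0.001. Aldh1l1 (-0.42 to 1.08) was called higher in CH than in NX under 5, among them quantile normalization and a pseudocount of 1, where the count of genes higher was 4. Of 780 values of single genes, 724 kept their direction and their side of the thresholds, 14 lost a call, 36 gained one and 6 changed sign.

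The count of genes lower in CH than in NX, 1 as deposited, was 6 with scaling to the hybridization controls, 2 at equal median signal and with array weights, 3 without the 2-fold limit and 0 at an adjusted p under 0.001. It was 1 to 2 with an array left out. The count higher in REC than in NX, also 1, was 7 with the hybridization controls, 0 with a pseudocount of 1 or 64, with array weights, at 0.001 or with the probe sets of a gene averaged, and 0 to 1 with an array left out. The count lower in REC than in NX, 0 as deposited, was 1 (Mthfd2) with array weights. The count lower in CH than in REC, 3 as deposited, was 5 at equal median signal and with the mean of probe sets and 7 with the hybridization controls, and 2, without Psph, with a pseudocount of 64 and at 0.001. The cause was not tested.

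Scaling to the hybridization controls moved the median of all probe sets to -0.72 in CH against NX, 0.39 in REC against NX and -1.13 in CH against REC. With it, Shmt1 changed sign in CH against NX (-1.12), REC against NX (0.23) and CH against REC (-1.35), Aldh1l1 in CH against NX (-0.42) and Shmt2 in CH against REC (-0.25). With the mean of its probe sets Aldh1l1 changed sign in CH against REC (0.025). At equal median signal CH against NX gave 2779 higher and 7725 lower probe sets.

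Deviations of arrays with the same replicate number correlated at -0.20 to 0.44, over 0.1 in 3 of 12 pairs. The highest value, 0.44, was that of replicate 1 of CH and NX. These arrays also had the highest median signals, 59.9 and 57.1. Each array holds a different mouse, and the main fit used no pairing by number. Shared handling of arrays was not tested. With the replicate number as a block, CH against NX gave 3 genes higher and 1 lower, REC against NX gave 1 and 0, and CH against REC gave 3 and 3, as without it.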
